A study of Rattus norvegicus with 9 samples.

Results

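The interleukins and interleukin receptors of the rat amygdala were taken as every non-control probe of the array whose gene name begins with Il and a digit. This gave 114 of 45598 probes and 79 of 34912 gene names. By their known roles 36 of these encode ligands, 36 receptors or receptor-like chains, 6 antagonists, decoys or binding proteins, and 1 (Il4i1, interleukin-4-induced gene 1) an enzyme that is no interleukin. A probe was compared between the groups if it lay well above background on at least 4 of the 9 arrays, which 57 of the 114 probes and 45 of the 79 genes did. Over the whole array, 30208 of 45598 probes and 22996 of 34912 gene names did.

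All 9 animals were adult female spontaneously hypertensive rats (SHR), an inbred strain with high blood pressure, and all had been ovariectomised at 4 weeks of age. In the OV+E2 group (n = 5, replicates 1 to 5) a minipump delivered estradiol in polyethylene glycol at 2 µg per day, and in the OV group (n = 4, replicates 1, 2, 3 and 5) the pump held polyethylene glycol without estradiol. The pumps were placed after 1 week of recovery and ran for 4 weeks, so the rats were killed at 9 weeks of age, and neither group had ovaries. The right and left amygdala of 1 rat were labelled for each array, so the spread within a group is that between rats, and the comparison of OV+E2 with OV asks which transcripts differ when estradiol is given back.

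Interleukins are secreted proteins by which leukocytes and resident cells signal to one another, most of them through paired receptor chains. Those of the IL-1 family signal through receptors with an accessory chain to MyD88 and NF-kappaB. Those of the IL-2, IL-6, IL-10 and IL-12 families signal through Janus kinases and STAT proteins. In the brain, microglia, astrocytes, neurons and vessel cells are known sources or targets of several of them, and antagonists and decoy receptors limit the signal.

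The arrays are read through probes of 60 bases. The sequences below are those of the probes that the comparison turns on, and they are given in lower case with each match to the letters ATTTA in capitals, except for Il17re. For Il23a the probe lay at chr7:1584187-1584246 on the minus strand of rat build rn4, for Il1rl2 at chr9:39537695-39537754 on the plus strand, for Il20 at chr13:43860771-43860830 on the minus strand and for Il36rn at chr3:2534706-2534765 on the plus strand.
Il23a: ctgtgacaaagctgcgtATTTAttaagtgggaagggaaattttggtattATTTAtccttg
Il1rl2: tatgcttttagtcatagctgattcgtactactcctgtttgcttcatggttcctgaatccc
Il20: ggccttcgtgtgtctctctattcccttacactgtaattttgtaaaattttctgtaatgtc
Il36rn: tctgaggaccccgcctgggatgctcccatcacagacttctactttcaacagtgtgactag
The next 4 are shown because probes of 1 gene differed in their result. The Il12rb2 probes lay on the minus strand of rn4, the brighter at chr4:96930500-96930559 and the dimmer at chr4:96925917-96925976, and the files give no rn4 position for the Il2rb probes.
Il12rb2 brighter: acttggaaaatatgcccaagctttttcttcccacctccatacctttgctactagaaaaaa
Il12rb2 dimmer: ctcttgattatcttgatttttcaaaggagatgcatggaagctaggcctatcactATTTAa
Il2rb brighter: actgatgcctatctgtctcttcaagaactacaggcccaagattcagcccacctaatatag
Il2rb dimmer: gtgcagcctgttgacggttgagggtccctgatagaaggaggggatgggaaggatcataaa
The last pair is shown because the probes read almost the same bases of Il17re, a receptor chain for IL-17C, at chr4:149361635-149361694 and chr4:149361638-149361697 on the plus strand, and here the capitals mark the 57 bases they share.
Il17re first: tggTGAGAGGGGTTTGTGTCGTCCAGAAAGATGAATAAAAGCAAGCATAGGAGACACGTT
Il17re second: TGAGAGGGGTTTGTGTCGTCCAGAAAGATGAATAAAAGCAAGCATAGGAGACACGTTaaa
ATTTA is the core of the AU-rich elements found in many short-lived cytokine mRNAs, and it was searched on the strand of the probe, with overlapping matches counted, after the Il23a probe had been seen. The Il23a probe held it 2 times. It occurred in 10 of the 114 interleukin probes (8.77%), in 7 of the 44 ligand probes (15.9%) and in 3550 of all 45598 probes (7.79%). On the other strand it occurred in 7 interleukin probes (6.14%) and in 4149 of all probes. These shares describe the 60 bases on the array and no more of each transcript.

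Depth and quality were similar on 8 arrays, and OV replicate 3 stood apart. The 75th percentile of its signal was 129.7, against 556.8 to 737.6 on the others, and 24220 of its probes were well above background, against 29049 to 31383. Its mean correlation with the other arrays was 0.947, against 0.980 to 0.983 for the rest. The column of this rat in the authors' deposited table correlated at 0.939 with its scanner file, while the other 8 columns correlated at 0.9999 or more with theirs. Signals are given here relative to each array, with the 75th percentile set to 100 (scaled signal), with the values of a group in the order of its replicate numbers, and values without OV replicate 3 are given beside many of the results. Signals of different probes do not rank their genes. The arrays lay on 2 slides, with OV+E2 replicates 1 and 2 and OV replicates 1, 2 and 3 on slide 1, and OV+E2 replicates 3, 4 and 5 and OV replicate 5 on slide 2. Of the markers of the labelled tissue, 6 of 7 for amygdala neurons (all but Rspo2) and 8 of 8 for neurons passed the filter.

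Of the 79 genes, 31 had a probe well above background on all 9 arrays, 14 on 4 to 8, 11 on 1 to 3 and 23 on none. Of the 14 genes on 4 to 8 arrays, 9 were missing on OV replicate 3 alone. Among ligands, 10 of 36 were on all arrays (Il34, Il7, Il15, Il33, Il18, Il17d, Il16, Il17b, Il1a and Il13) and 8 on 4 to 8 (Il10, Il12a, Il1b, Il20, Il23a, Il24, Il25 and Il31). Ligands on 0 arrays were 14 in number: Il2, Il3, Il4, Il5, Il6, Il9, Il11, Il12b, Il17a, Il17f, Il19, Il22, Il36a and Il1f10. Il36b and Il36g were on 1 array, Il21 on 2 and Il17c on 3. Receptors were on all 9 arrays in 19 of 36 genes and on 4 to 8 in 3, and 5 of the 6 antagonists, decoys and binding proteins were tested. Receptors on 0 arrays were Il2rg, Il5ra, Il12rb1, Il17rb, Il18rap, Il20ra, Il22ra1 and Il27ra. Il23r, Il31ra and Il9r were on 1 array, Il20rb on 2, Il1r1 and Il21r on 3, and the decoy Il1r2 on 2. A gene not well above background was not measurable on these arrays, which gives no level for it.

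**Figure D1:**
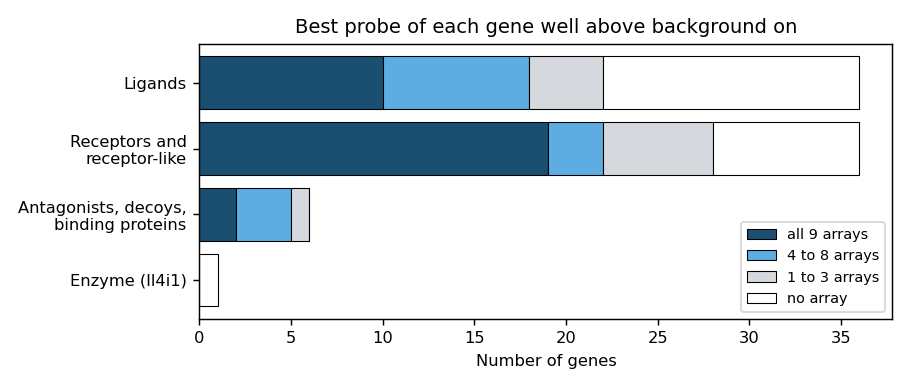
Number of genes (x axis) in each role class of the interleukin family (rows), split by the number of arrays on which the best probe was well above background. Of 36 genes each, 22 receptors and 18 ligands reached at least 4 arrays.

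At an adjusted p under 0.05 in limma, 0 of the 57 interleukin probes and 0 of all 30208 tested probes were called (0%), with a smallest adjusted p of 0.251 among the interleukins and 0.155 over the array. At an unadjusted p under 0.05, 3 interleukin probes were lower in OV+E2 (5.26%, against 7.17% of all probes) and 4 were higher (7.02%, against 3.2% of all probes). All OV+E2 rats lay below all OV rats for 1 probe (Il36rn, against 4.02% of all probes) and above them for 2 (Il23a and Il1rl2, against 2.89%). Of these, Il1rl2 met the filter through the OV+E2 rats alone. The median log2 difference, OV+E2 minus OV, was 0.00 over the 57 probes and 0.00 over all tested probes, with 28 negative and 29 positive. By gene, with the brightest probe standing for each, the 18 ligands had a median of −0.02, the 22 receptors 0.01 and the 5 antagonists −0.04. In tissue of many cell types, fewer cells of a type and less RNA per cell cannot be told apart.

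**Figure D2:**
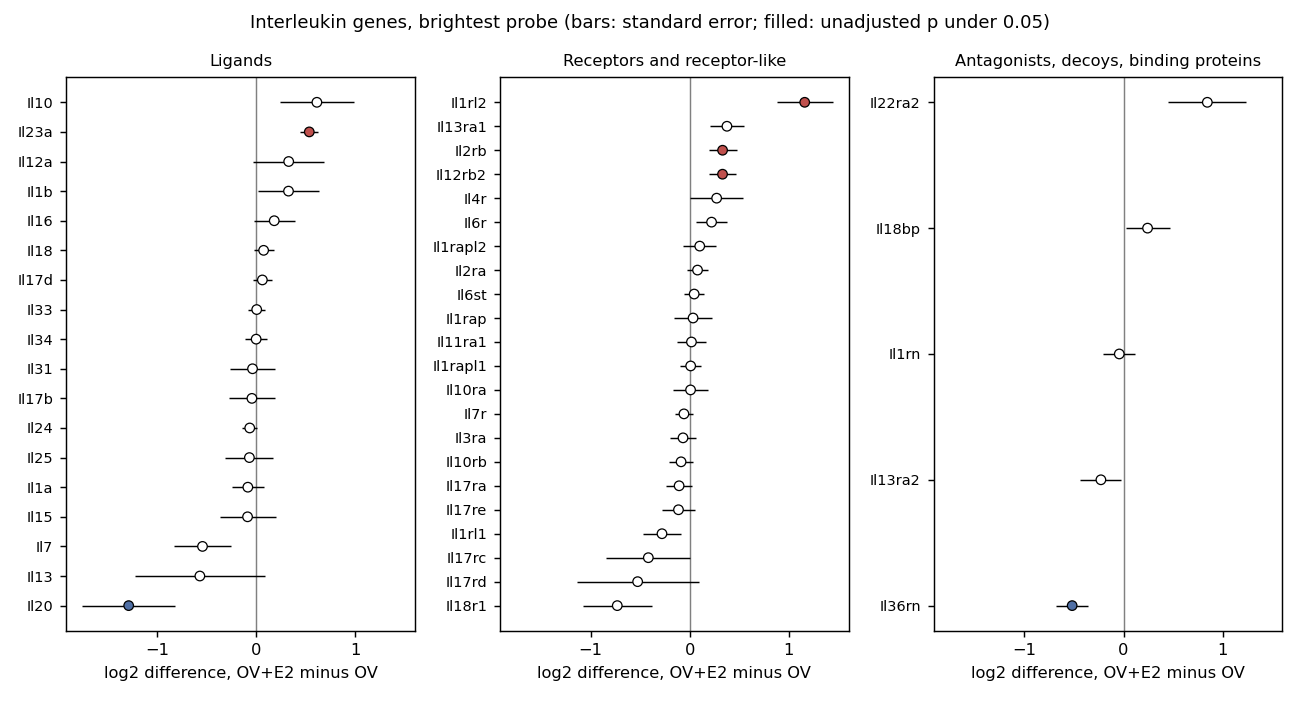
Log2 difference, OV+E2 minus OV (x axis), of the brightest tested probe of each of 45 interleukin genes, by role, with standard errors as bars and filled points where the unadjusted p is under 0.05. Most points lie near 0, and Il1rl2, at 1.16, and Il20, at −1.28, lie at the ends.

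Il23a, the p19 subunit that makes IL-23 with the p40 subunit Il12b, had the smallest p of the family. Its scaled signals were 15.6, 17.1, 16.1, 17.6 and 16.6 in the OV+E2 rats, against 11.6, 11.2, 10.3 and 12.7 in the OV rats. Every OV+E2 rat lay above every OV rat, and the OV+E2 rats kept within a narrow band. The log2 difference was 0.54 (SE 0.09, adjusted p = 0.251 in limma). It was 0.49 without OV replicate 3, the one array on which the probe was not well above background, 0.57 within slide 1, 0.40 within slide 2, 0.50 with the slide as a block and 0.43 in the authors' values. After normexp background correction with an offset of 50 it was 0.04. The offset was added before scaling, so it weighed most on OV replicate 3, the array of lowest signal. The genes that act with it were mostly not measurable: Il12b and the receptor chain Il12rb1 were on 0 arrays and Il23r on 1. Il12a, the p35 subunit of IL-12, had scaled signals of 10.5, 7.98, 11.7, 10.3 and 8.80 in the OV+E2 rats, against 11.2, 11.7, 3.19 and 8.69 in the OV rats. OV replicate 3 was the lowest rat and the groups overlapped, with a log2 difference of 0.33 ± 0.36 (SE), or −0.10 without that rat.

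Il12rb2, the signalling chain of the IL-12 receptor, had 2 tested probes, which gave unlike results. The brighter gave 30.8, 36.8, 44.5, 42.0 and 40.9 in the OV+E2 rats, against 32.4, 36.6, 28.3 and 26.7 in the OV rats. OV+E2 replicates 3 to 5 were the highest rats, while OV+E2 replicate 1 lay among the OV rats, so the groups overlapped. The log2 difference was 0.33 (SE 0.14, adjusted p = 0.47 in limma), with 0.06 within slide 1, 0.67 within slide 2 and 0.30 with the slide as a block. Without OV replicate 3 it was 0.29, and after normexp 0.13. The dimmer probe gave 18.2, 17.1, 18.9, 18.7 and 18.9 in the OV+E2 rats, against 16.4, 20.5, 18.4 and 16.3 in the OV rats, groups that overlapped throughout, and a difference of 0.04 ± 0.10 (SE). Both lie in predicted transcripts, and 2 probes on the curated transcript of Il12rb2 were on 0 arrays.

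The receptor of the IL-36 cytokines, Il1rl2, and their antagonist, Il36rn, which binds that receptor without signalling, both had an unadjusted p under 0.05 and neither passed the adjusted test. Il1rl2 had scaled signals of 3.40, 3.06, 7.04, 6.76 and 5.75 in the OV+E2 rats, against 2.64, 2.20, 2.41 and 1.67 in the OV rats. It was well above background in 4 of 5 OV+E2 rats, all but replicate 2, and in no OV rat, and the groups did not overlap. It met the filter through the OV+E2 rats alone, which by itself favours a higher value in them. For a fold, each OV value was set to the lowest signal well above background on its array, or kept where higher. This gave 1.38-fold higher in OV+E2. That lowest signal is of any probe and need not be the limit of this one. OV+E2 replicate 2, not well above background either, entered at its own signal. The fitted log2 difference was 1.16 (SE 0.28, adjusted p = 0.251 in limma). The 3 OV+E2 rats of slide 2 held the high values, with a difference of 0.42 on slide 1 alone, 1.96 on slide 2 alone and 1.01 when slide was fitted as a block. Leaving out OV replicate 3 gave 1.20, and the difference turned to −0.13 after normexp, whose offset weighed most on that rat.

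Il36rn had scaled signals of 21.7, 23.7, 28.7, 24.3 and 25.0 in the OV+E2 rats, against 30.2, 34.8, 48.6 and 30.1 in the OV rats. All OV+E2 rats lay below all OV rats, and OV replicate 3 was the highest of the 9. The log2 difference was −0.52 (SE 0.16, adjusted p = 0.319 in limma). It was −0.36 without OV replicate 3, −0.71 within slide 1, −0.21 within slide 2, −0.52 with the slide as a block and −0.40 in the authors' values. A second Il36rn probe was on 0 arrays, and of the ligands Il36a was on 0 arrays and Il36b and Il36g on 1.

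Il20, a cytokine of the IL-10 family known mainly from skin, was well above background in 3 rats of each group, and the groups overlapped. Its scaled signals were 9.80, 4.87, 2.79, 1.55 and 3.00 in the OV+E2 rats, against 6.30, 9.22, 11.9 and 8.73 in the OV rats. OV+E2 replicate 1 lay among the OV rats and the other OV+E2 rats lay below all of these. The log2 difference was −1.28 (SE 0.47, adjusted p = 0.407 in limma), with −0.36 within slide 1, −1.89 within slide 2 and −0.95 with the slide as a block. Without OV replicate 3 it was −1.14, and after normexp −0.70. Il19, Il20ra and Il22ra1, which share its pathway, were on 0 arrays and Il20rb on 2.

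Il2rb, the beta chain shared by the receptors of IL-2 and IL-15, gave opposite directions on 2 probes. The brighter, with the probe well above background on all but OV replicate 3, read 4.07, 3.80, 5.62, 5.28 and 5.35 in the OV+E2 rats, against 3.76, 3.88, 4.11 and 3.44 in the OV rats. OV+E2 replicates 3 to 5 were the highest and the other rats overlapped, with a log2 difference of 0.33 (SE 0.14, adjusted p = 0.469 in limma). On slide 1 alone this came to 0.01, on slide 2 alone to 0.66, and it was 0.26 with the slide as a block, 0.37 with OV replicate 3 left out and −0.25 after normexp. The dimmer, well above background in 3 rats of each group, read 2.93, 2.79, 2.28, 2.77 and 3.82 in the OV+E2 rats, against 3.58, 5.77, 7.56 and 6.73 in the OV rats. All OV rats but replicate 1 lay above all OV+E2 rats, and the difference was −0.98 (SE 0.23, adjusted p = 0.251 in limma). This was −0.91 within slide 1, −1.22 within slide 2, −1.03 with the slide as a block and −0.85 without OV replicate 3. No direction is therefore given for the gene.

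Of the markers of T and NK cells, which are known to carry Il2rb, 5 of 10 were tested, and limma gave none of these an adjusted p under 0.05. At an unadjusted p under 0.05, 4 of the 5 were lower in OV+E2 (Cd3d, Cd4, Zap70 and Nkg7) and none was higher, against 7.17% lower and 3.2% higher of all probes. The summed scaled signal of the 5 was 223 to 259 in OV+E2 rats, against 247 to 543 in OV rats, and these ranges overlapped. Without OV replicate 3 the OV range was 247 to 327 and 3 of 5 were lower, against 8.26% of all probes. The sum is mostly that of Cd4, the brightest, with mean log2 signals of 0.70 in OV+E2 and 1.21 in OV. The next, Cd3d, had −1.40 and −0.65. The defining markers Cd3e, Cd3g, Cd2, Cd8a and Lck were not tested, Lck being on 3 arrays and the others on 0. The part of these cells in the Il2rb values was not tested, and neither was which cells held the Cd4 signal. Of the partners, Il2ra, the alpha chain, had differences of 0.08 ± 0.11 and 0.16 ± 0.34 (SE) on 2 probes, and Il2rg was on 0 arrays. The 3 tested probes of the ligand Il15 gave −0.09 ± 0.28, 0.30 ± 0.18 and 0.04 ± 0.44, or −0.05, 0.22 and −0.45 without OV replicate 3.

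**Figure D3:**
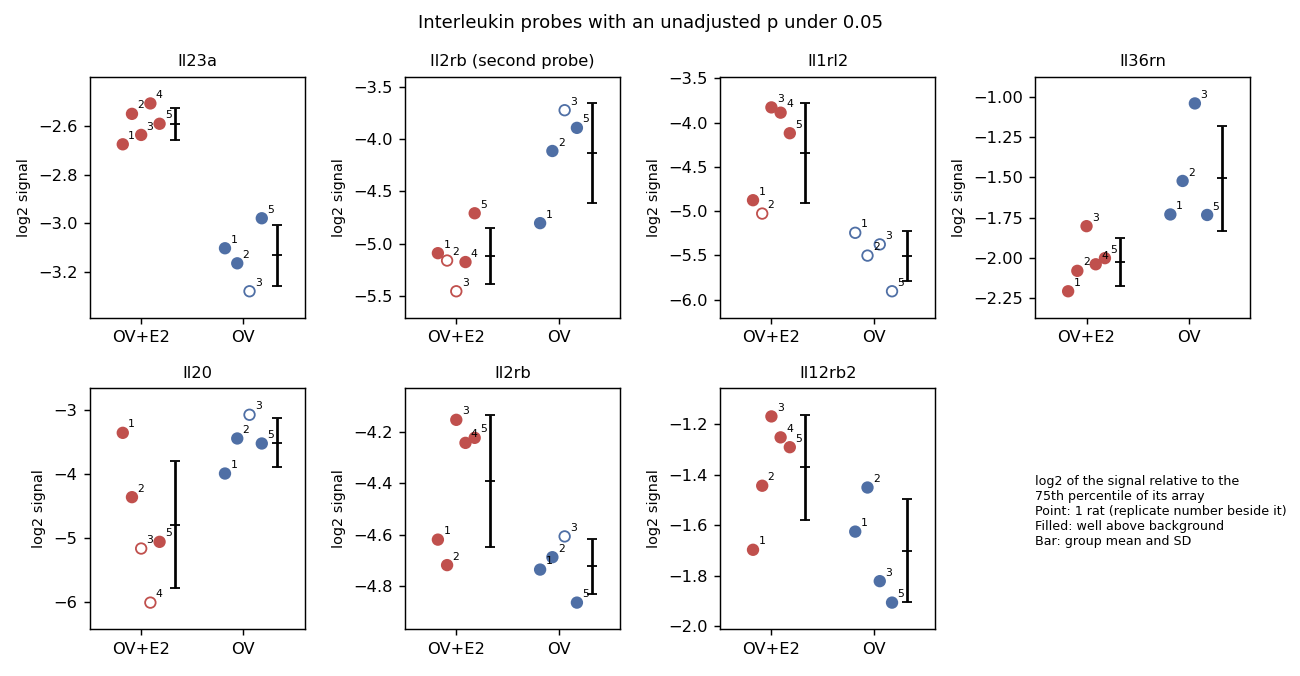
Log2 signal relative to the 75th percentile of the array (y axis) for the 7 interleukin probes with an unadjusted p under 0.05, 1 point a rat with its replicate number, OV+E2 left of OV, and bars for the group mean and SD. The groups do not overlap for Il23a, Il1rl2 and Il36rn, and the probes of Il2rb point in opposite directions.

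Between slides, the directions of these 7 probes did not turn, while several sizes did not hold. Within slide 1 the differences of Il12rb2 and of the brighter Il2rb probe were 0.06 and 0.01, against 0.67 and 0.66 within slide 2, where the OV group is replicate 5 alone. The difference of Il36rn went the other way in size, with −0.71 within slide 1 and −0.21 within slide 2. With the slide as a block, or without OV replicate 3, the unadjusted p of Il20 and of the brighter Il12rb2 probe was no longer under 0.05, and that of the brighter Il2rb probe was not with the block. Whether the effect itself differs between slides was not tested.

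**Figure D4:**
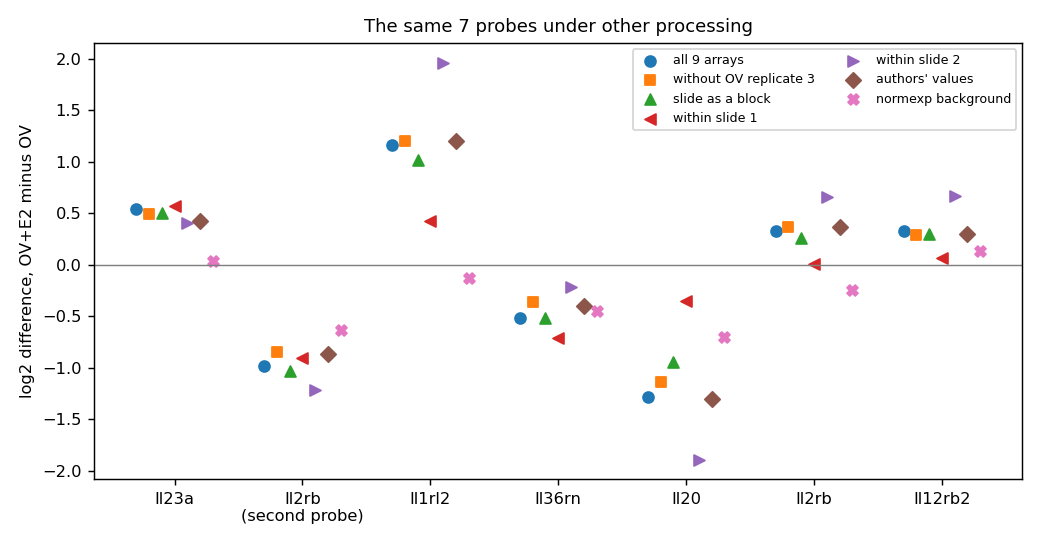
Log2 difference, OV+E2 minus OV (y axis), of the 7 interleukin probes of smallest p under 7 ways of processing the arrays (symbols). Il23a lies between 0.40 and 0.57 except after normexp (0.04), and the symbols of Il1rl2 spread from −0.13 to 1.96.

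The 5 interleukin genes whose probes were brightest, which is an order of probes and not of transcript levels, each had an unadjusted p above 0.05. Il34, a ligand of the CSF1 receptor on which microglia are known to depend, had scaled signals of 1319.5, 1234, 1399, 1339 and 1369 in the OV+E2 rats, against 1384, 1243, 1578 and 1151 in the OV rats. The OV rats held both the highest and the lowest value, and the difference was 0.00 ± 0.11 (SE), or 0.08 without OV replicate 3. Its receptor Csf1r differed by 0.04 and the other ligand of that receptor, Csf1, by −0.02. Il33, a nuclear alarmin known from glia of the mouse, had 117, 115, 105, 112 and 106.7 in the OV+E2 rats, against 113, 112, 117 and 101 in the OV rats. The groups overlapped fully, with a difference of 0.01 ± 0.09. Il6st, the gp130 chain shared by the IL-6 family, had 674, 799, 634, 708 and 679.9 in the OV+E2 rats, against 626, 679.8, 745 and 657 in the OV rats on its brighter probe. OV+E2 replicate 2 was the highest rat, and the difference was 0.04 ± 0.10, against −0.21 ± 0.21 on the dimmer probe, which became 0.03 without OV replicate 3. Il17ra, the chain common to IL-17 receptors, had 224, 254, 229.6, 253 and 241 in the OV+E2 rats, against 241, 243, 342 and 223 in the OV rats. OV replicate 3 was the highest rat, with a difference of −0.11 ± 0.13, or 0.03 without it.

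Il7, a growth factor for lymphocytes, spread more widely in the OV rats. Its scaled signals were 1025, 989, 982, 1104 and 917 in the OV+E2 rats, against 814, 1475, 2726 and 1374 in the OV rats. OV replicate 1 lay below all OV+E2 rats and the other OV rats above all of these. The log2 difference was −0.54 ± 0.29 (SE, adjusted p = 0.512 in limma), −0.24 without OV replicate 3, −0.56 within slide 1 and −0.46 within slide 2. Of its other probes, 1 was on 5 arrays with a difference of 0.01 ± 0.31 and 1 was on a single array. Il7r, its receptor chain, differed by −0.06 ± 0.09.

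In the IL-1 system, the agonists Il1a and Il1b, the antagonist Il1rn and the accessory chain Il1rap were tested, and the signalling receptor Il1r1 and the decoy Il1r2 were not. Il1a had scaled signals of 9.20, 11.0, 13.2, 11.5 and 13.9 in the OV+E2 rats, against 15.8, 12.6, 10.9 and 10.6 in the OV rats. Il1b was well above background in all OV+E2 rats and in 2 OV rats, with 3.76, 7.09, 4.15, 3.75 and 5.90 in the OV+E2 rats, against 5.76, 3.22, 2.29 and 4.88 in the OV rats. Il1rn had 5.49, 6.62, 7.64, 6.75 and 8.43 in the OV+E2 rats, against 5.85, 9.04, 6.71 and 7.28 in the OV rats. For each of the 3 the groups overlapped, and the differences were −0.08 ± 0.16, 0.33 ± 0.31 and −0.04 ± 0.16 (SE). Without OV replicate 3 that of Il1b was 0.08. Il1rap had 77.6, 100.3, 82.9, 82.8 and 84.0 in the OV+E2 rats, against 84.8, 69.9, 127 and 63.8 in the OV rats on its brighter probe. OV replicate 3 was the highest and OV replicate 5 the lowest, with a difference of 0.03 ± 0.20, against −0.11 ± 0.19 on the other probe, and 0.24 and 0.10 without OV replicate 3. The brain paralogues of this chain, Il1rapl1 and Il1rapl2, which act at synapses, differed by 0.01 ± 0.11 and 0.10 ± 0.17, or 0.05 and −0.08 without OV replicate 3.

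Il1rl1, the receptor of IL-33, had scaled signals of 96.4, 90.8, 102, 113 and 98.2 in the OV+E2 rats, against 80.7, 123, 169.7 and 128 in the OV rats. OV replicate 3 was the highest rat and OV replicate 1 the lowest, and the difference was −0.28 ± 0.19 (SE), or −0.12 without OV replicate 3. Il18 had 78.2, 78.4, 80.6, 76.4 and 77.8 in the OV+E2 rats, against 73.1, 79.8, 62.5 and 83.1 in the OV rats. OV replicate 3 was the lowest rat, the OV+E2 rats lay close together, and the difference was 0.08 ± 0.10. Il18r1, the ligand-binding chain of its receptor, had 5.26, 5.11, 5.38, 5.49 and 5.30 in the OV+E2 rats, against 4.82, 7.74, 20.5 and 7.89 in the OV rats. OV replicate 1 was the lowest of all rats, while OV replicates 2, 3 and 5 lay above all OV+E2 rats. The difference was −0.73 ± 0.35 (adjusted p = 0.498 in limma), −0.33 without OV replicate 3, −0.82 within slide 1 and −0.55 within slide 2. Il18bp, which neutralises IL-18, had 19.2, 19.97, 19.6, 19.2 and 26.1 in the OV+E2 rats, against 19.5, 16.7, 11.2 and 25.6 in the OV rats. OV+E2 replicate 5 and OV replicate 5 were the highest, and the difference was 0.24 ± 0.22, or 0.03 without OV replicate 3. The accessory chain Il18rap was on 0 arrays.

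Among the genes of IL-6 signalling, Il6 itself was on 0 arrays. Il6r, its binding chain, had scaled signals of 36.3, 31.7, 32.4, 37.7 and 39.0 in the OV+E2 rats, against 38.2, 30.4, 22.3 and 32.5 in the OV rats on the brighter probe. OV replicate 3 was the lowest rat and the groups overlapped, with a difference of 0.22 ± 0.16 (SE), or 0.07 without that rat, and −0.04 ± 0.23 on the dimmer probe. Il11ra1, the IL-11 binding chain, had 90.9, 87.7, 81.9, 79.1 and 84.2 in the OV+E2 rats, against 103, 88.3, 60.6 and 88.7 in the OV rats. OV replicate 1 was the highest and OV replicate 3 the lowest, and the difference was 0.02 ± 0.15, or −0.14 without OV replicate 3.

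The differences of a few IL-13 and IL-17 genes were not alike with and without OV replicate 3. For Il17rd, a receptor chain known also to restrain FGF signalling, the OV+E2 rats spanned 53.5 to 71.8 and the OV rats 44.8 to 468, the top value being replicate 3. The difference was −0.53 ± 0.62 (SE) with this rat and 0.25 without it. In the authors' deposited table the value of OV replicate 3 was 279.4, against 294.73 to 472.76 in the other rats. Il13, a cytokine of type 2 immunity, spanned 3.02 to 6.26 in OV+E2 and 3.44 to 35.8 in OV rats, again with replicate 3 at the top, and differed by −0.57 ± 0.66, or 0.23 without it. Il17rc, the partner of Il17ra, spanned 3.73 to 5.48 in OV+E2 and 3.63 to 17.4 in OV rats, and differed by −0.42 ± 0.42, or 0.09 without replicate 3. Il13ra1, a chain of the IL-4 and IL-13 receptor, gave 0.38 ± 0.17 on its brighter and −0.65 ± 0.38 on its dimmer probe, and 0.18 and −0.18 without OV replicate 3, which was the lowest rat on one and the highest on the other.

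The other tested members each had an unadjusted p above 0.05. Among ligands, Il10, an anti-inflammatory cytokine, was well above background in 4 OV+E2 rats and 1 OV rat. It spanned 2.52 to 5.75 in OV+E2 and 1.33 to 4.73 in OV rats, and differed by 0.61 ± 0.37 (SE). Il16, a chemoattractant for CD4 cells, differed by 0.18 ± 0.21, or −0.05 without OV replicate 3. Of the IL-17 family, Il17b differed by −0.04 ± 0.24, Il17d by 0.06 ± 0.10 and Il25, which acts through Il17ra and Il17rb, by −0.07 ± 0.24. Il24, of the IL-10 family, differed by −0.06 ± 0.08, and Il31, a cytokine known for itch, by −0.04 ± 0.22. Among receptors, the IL-10 chains Il10ra and Il10rb differed by 0.01 ± 0.17 and −0.09 ± 0.12, or −0.15 and 0.02 without OV replicate 3. Il3ra, which binds IL-3, differed by −0.07 ± 0.13, and Il4r, which binds IL-4, by 0.27 ± 0.27, or 0.00 without OV replicate 3. Of the binding proteins, Il22ra2, a soluble receptor that neutralises IL-22, spanned 6.57 to 13.4 in OV+E2 and 2.43 to 9.08 in OV rats and differed by 0.85 ± 0.39, or 0.44 without OV replicate 3. Il13ra2, a decoy for IL-13, differed by −0.23 ± 0.21.

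Several probes of a gene did not always read alike. Of 11 genes with at least 2 tested probes, the Il17re pair, which shares 57 of 60 bases, gave −0.11 ± 0.17 and −0.17 ± 0.16 (SE). The widest gaps were those of Il2rb (0.33 and −0.98) and Il13ra1. In 10 genes some probes were tested and others were not, and in 6 of them (Il10, Il10ra, Il12rb2, Il17rd, Il1rl1 and Il7r) every tested probe was on a predicted RefSeq transcript while the probes on curated transcripts were on 0 or 1 array. Of all interleukin probes, 43 of 89 on curated transcripts were tested (48.3%) and 11 of 16 on predicted ones (68.8%). Values of these 6 genes therefore rest on predicted transcripts alone.

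**Figure D5:**
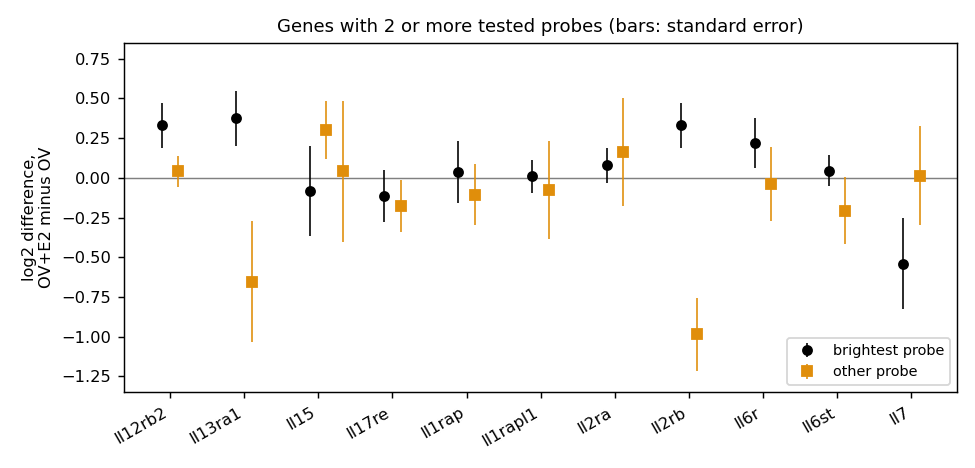
Log2 difference, OV+E2 minus OV (y axis), of each tested probe of the 11 interleukin genes with at least 2 tested probes (x axis), with the brightest probe as a circle, the others as squares and standard errors as bars. The probes of Il17re lie together, at −0.11 and −0.17, and those of Il2rb lie far apart, at 0.33 and −0.98.

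Neighbouring interleukin genes of the rat genome were detected unequally. On chromosome 9 of rn4 (39316654 to 39697401), Il1rl2, Il1rl1 and Il18r1 were tested, while Il1r2, Il1r1 and Il18rap, in the same stretch, were not. On chromosome 3 (2437664 to 2613189) Il36rn and Il1rn were tested of 6 genes, on chromosome 13 (43831514 to 43957766) Il24, Il20 and Il10 of 4, and on chromosome 10 (39074590 to 39684760) Il13 of 4. Within the chromosome 9 stretch the differences were 1.16 for Il1rl2, −0.28 for Il1rl1 and −0.73 for Il18r1, and none of the 3 passed the adjusted test.

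When the arrays were weighted by how well they fitted, which gave OV replicates 1, 2, 3 and 5 weights of 0.472, 4.25, 0.0489 and 0.820, 3504 of 30208 probes passed an adjusted p of 0.05 (11.6%). Of the 57 interleukin probes 6 did. The OV mean of this fit rests mostly on replicate 2, and leaving out OV replicate 3 in place of weighting called 1 probe over the array and 0 interleukin probes. Higher in OV+E2 were Il23a (adjusted p = 0.00783) and Il1rl2 (0.0165), which met the filter through the OV+E2 rats alone. Lower were the dimmer Il2rb probe (0.0188), Il36rn (0.0200), Il18r1 (0.0256) and Il7 (0.0407), all in limma.

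On all 9 arrays, each list of downstream and partner genes held at most 1 gene past an unadjusted p of 0.05. Of 24 tested genes of the JAK-STAT pathway, 1 was higher at an unadjusted p under 0.05 (Socs3, a feedback inhibitor of IL-6 signalling, by 0.25) and 0 were lower, with a median of 0.00. Without OV replicate 3, 4 were higher and 1 lower, against 5.86% and 8.26% of all probes. Of 25 tested adaptors and NF-kappaB genes of IL-1 and Toll signalling, 0 were higher and 1 lower (Relb, by −0.55), with a median of 0.00, and 2 were lower without OV replicate 3. Of 10 partners in the IL-6 family, Osm, the cytokine oncostatin M, was lower by −0.73 and none was higher, and of 9 tested partners of other receptors none was past that p. The counts on all 9 arrays stand beside 3.2% higher and 7.17% lower over all probes, and limma called no gene in the 4 lists at an adjusted p of 0.05.

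Of the markers of cells that are known to make or answer interleukins, limma gave none an adjusted p under 0.05, and the counts that follow stand beside 7.17% lower and 3.2% higher of all probes, or 8.26% and 5.86% without OV replicate 3. Of 12 microglia and macrophage markers, 4 were lower at an unadjusted p under 0.05 (Itgam by −0.58, Aif1 by −0.39, Cx3cr1 by −0.74 and Cd68 by −0.35) and none was higher, with summed scaled signals of 6236 to 6941 in OV+E2 rats, against 6611 to 9047 in OV rats. Without OV replicate 3 the OV range was 6611 to 7419 and 3 were lower. Of 3 tested neutrophil markers 1 was lower (S100a8), with sums of 13.9 to 17.2 in OV+E2, against 20.9 to 78.0 in OV rats, the top value being OV replicate 3. Without that rat the OV range was 20.9 to 23.0 and 2 were lower, and Elane and Camp were not tested. The probes of S100a8, S100a9 and Mpo were dim, with mean log2 signals of −4.96, −4.05 and −4.09 in OV+E2 rats. That of S100a8 was well above background on 6 arrays. Of 8 endothelial markers 2 were lower, with sums of 2116 to 2431 in OV+E2, against 2372 to 3698 in OV rats, or 2372 to 2537 without OV replicate 3, where again 2 were lower. Of 6 markers of meninges and fibroblasts 3 were lower, the collagen genes Col1a1, Col1a2 and Col3a1. The other 3, Dcn, Lum and Ogn, differed by 0.20, 0.13 and 0.00. The sums of the 6 were 1883 to 2240 in OV+E2, against 2218 to 2911 in OV rats. Without OV replicate 3, 5 of the 6 were lower. Of 5 B cell markers only Pax5 was tested. None of 4 tested mast cell, 5 astrocyte, 5 choroid plexus or 6 tested amygdala neuron markers was past that p, while 2 of the 5 astrocyte markers were lower without OV replicate 3. The choroid plexus markers, mostly Ttr, summed to 25369 to 47435 in OV+E2 rats, against 1141 to 74849 in OV rats. Without OV replicate 3 their OV range was 1141 to 34291, and their median difference went from 0.51 to 1.06. Of 8 neuron markers 1 was higher (Slc17a7, by 0.30) and of 5 oligodendrocyte markers 1 was lower (Mobp, by −0.58). Of 5 red cell markers 3 were lower (Ahsp, Slc4a1 and Alas2), while the globin genes Hba-a1 and Hbb differed by 0.20 and 0.11. The red cell sums were 422 to 568 in OV+E2, against 327 to 626 in OV rats, and overlapped. The part of these cells in the interleukin values was not tested.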

How the data were processed

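RNA of the amygdala was read on Agilent 1-colour rat arrays. The processed signal deposited by the authors is an intensity after background subtraction, made with Feature Extraction 10.7.3.1 per the file headers, while the submitters' processing notes name version 9.1. The flags for control, outlier and well-above-background spots are other columns of the same deposited files, per the file headers. The authors' deposited value table served as an alternative, and no method for its scaling is given in the sources used here. It holds 30469 probes, with 321 empty cells.

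Of the 62976 spots of each array, 4259 control spots and the spots that Feature Extraction marked as outliers were left out, and spots of a probe were averaged. Log2 signals were set against the 75th percentile of their array. The 30208 probes that were well above background on 4 arrays or more were compared in limma 3.58.1 (R 4.3.3), with a linear model of group alone, moderated by eBayes, and Benjamini-Hochberg adjustment over all 30208 probes. Differences are OV+E2 minus OV. For Il1rl2, which no OV array held well above background, the fold is OV+E2 over the lowest signal well above background or its own signal, whichever was higher, as a mean over arrays. The fit was tested on simulated data. Figures were drawn with matplotlib 3.10.9 in Python 3.11.15.

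The brightest tested probe stood for a gene. Every tested gene was named, and values of each rat were given for genes with an unadjusted p under 0.05, the 5 of highest signal and the IL-1, IL-18, IL-33, IL-6, IL-34, IL-12 and IL-23 systems. The members and lists were chosen with earlier results of these data known. The role classes, the ATTTA search, the choice of printed probes, the gene clusters and the comparison of curated with predicted transcripts were chosen after the values were seen. A search of the probes in promoter sequences was also tried and is not reported here. All 79 gene names are RefSeq symbols, and 89 of the 114 probe accessions matched RefSeq, each with the same symbol. The position of probes within exons was not analysed here. No tested interleukin probe was saturated or had a missing value, and the number of arrays limits the precision.

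Alternatives were median scaling, quantile normalization, normexp with an offset of 50, no filter, a filter on all 9 arrays, spots marked as outliers kept, the slide or the replicate number as a block, array weights, the authors' values, and each array left out.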

Additional observations from a re-analysis of the deposited data

Results flagged for a closer look

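For 7 of the 45 tested interleukin genes 1 rat stood far from the others of its group in log2 signal, by a test that chance passes in about 1 of 20 groups (45 genes in each of 2 groups were examined). In the OV+E2 group these were Il16 in replicate 2, the lowest at −0.94, and Il18bp in replicate 5, the highest at −1.94. In the OV group Il17re in replicate 1 was the lowest at −2.23. The other 4 were all in OV replicate 3: Il17rd, the highest at 2.23, Il13, the highest at −1.48, Il10rb, the highest at 0.34, and Il13ra1, the lowest at −3.01. OV replicate 3 is the array whose scanner file differs from the authors' column for that rat, and in the authors' deposited table its values of Il17rd (279.4) and Il13 (16.36) were the lowest of the 9 rats.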

How the results depend on the processing

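The count of probes called over the whole array was 0 and became 9 with no filter on dim probes, 3504 with array weights, 69 in the authors' values and 1 in these without OV replicate 3. Leaving out each rat gave 0 to 1 (1 without OV replicate 1 and 1 without OV replicate 3). Within slide 1 it was 0. No count is given within slide 2, where the spread of the only OV rat would have to be assumed to be that of the OV+E2 rats. Interleukin probes lower at an unadjusted p under 0.05 were 3 of 57. They became 10 of 114 with no filter and 1 of 37 with a filter on all 9 arrays. Array weights gave 7, the authors' values 5 and a rat left out 2 to 7, the 7 being without OV replicate 1. The share of all probes lower was 7.17% and became 7.97%, 7.35%, 17%, 10.4% and 12% in the same settings. The higher ones were 4 of 57, and 0 after normexp. They became 2 of 114 with no filter and 1 of 37 with a filter on all 9 arrays. The slide as a block gave 2, array weights 8 and the authors' values 7. With a rat left out they were 2 to 5, the 2 being without OV replicate 1 or any one of OV+E2 replicates 3, 4 and 5. The share of all probes higher was 3.2% and became 2.74%, 1.57%, 3.37%, 2.04%, 14.5% and 8.47%, and 5.61% without OV replicate 1. It was 1.95%, 1.82% and 1.62% without OV+E2 replicates 3, 4 and 5. The median (0.00) became 0.11 with median scaling (0.11 over all probes), −0.20 after normexp (−0.11) and −0.18 with no filter (−0.13). Turned in direction were Il1rl2 (−0.13) and Il2rb (−0.25) after normexp, and Il2rb on its other probe (−0.98) and over the mean of both (−0.33). The normexp offset was added before scaling and weighed most on OV replicate 3, whose 75th percentile was 129.7. Normexp without that rat was not run, and the cause was not tested.

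Replicate numbers as a replicate block, which keeps 8 rats, gave 0 called probes. At an unadjusted p under 0.05 in limma, 2 interleukin probes were lower and 2 higher, against 5.07% lower and 1.43% higher of all probes. Deviations from the group means correlated between rats of the same number at 0.170, −0.0761, −0.0111 and 0.105 for replicates 1, 2, 3 and 5, so the numbers were not taken as pairs. Replicates 1 and 5 correlated best with their own number, and 2 and 3 did not. For single genes under an alternative, 919 values moved by less than the spread or kept their side, 40 moved by more, 35 lost an unadjusted p under 0.05 and 4 turned. Of the 39 genes at a higher p, which are given no direction, 16 turned sign without OV replicate 3, among them Il13, Il17rc, Il17rd and Il12a, and 13 after normexp. Dim probes such as Il1rl2, Il20 and Il2rb, on 4 to 8 arrays, are limited by signal over background.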
